A study of Mus musculus with 2 samples.

Results

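Brain cells that carry abundant MHC class II transcripts were examined in 2 single-cell 3' RNA libraries of mouse microglia sampled on day 3 of repopulation, when the cells refill the brain after depletion. The cells had been sorted for high CD11b with low CD45. Members were chosen by measured UMIs (unique molecular identifiers, each standing for 1 captured transcript): a barcode was taken as class II-high when H2-Aa, H2-Ab1, H2-Eb1 and Cd74 together made up at least 0.5% of its UMIs and S100a8 plus S100a9 stayed below 1%. Barcodes with fewer than 500 genes or over 10% of UMIs from mitochondrial genes were set aside first. This gave 31 of 2301 kept cells in the Hk2 cKO library and 48 of 2826 kept cells in the Hk2 fl/fl library, or 79 of 5127 in all (5696 barcodes before filtering). The cKO mice carried Cx3cr1CreER and floxed Hk2 alleles, and the fl/fl mice the floxed alleles without that Cre; the strain is given as C57BL/6 for both. CreER from the Cx3cr1 locus is a tamoxifen-activated recombinase made in microglia and in other cells that use Cx3cr1, blood monocytes among them. Cre was induced with 100 µg tamoxifen on 2 consecutive days at postnatal day 1 to 2 or at other times not detailed in the labels. The sources used here do not state whether the fl/fl mice received tamoxifen, how microglia were depleted, the age at sorting, how many animals gave each library or which Hk2 exons are floxed. The sort was made for microglia, so cells high in CD45, as most dendritic cells and macrophages of the brain borders are, were gated against. Each genotype had 1 library, which leaves every difference without a replicate check or a test. Intervals are 95% Clopper-Pearson for shares and exact Poisson for levels, and cover counting error only. Fewer transcripts per cell and fewer cells with them cannot be told apart in sums over cells.

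MHC class II molecules are heterodimers of an alpha chain (H2-Aa) and a beta chain (H2-Ab1, H2-Eb1) that show peptides from engulfed material to CD4 T cells; Cd74 encodes the invariant chain that escorts them to the endosome, and H2-DM helps to load the peptide. The transactivator Ciita switches these genes on through a conserved promoter module in which the X box is bound by the RFX complex and the Y box by NF-Y. In the brain, high class II levels are a feature of dendritic cells and of some macrophages of the meninges, perivascular spaces and choroid plexus, while parenchymal microglia of the healthy brain hold little.

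The promoters of H2-Aa and H2-Eb1 are shown because transcripts of these genes chose the cells. They cover the window around the RefSeq start on GRCm38.p6, mostly upstream, 5′ to 3′ on the strand of the gene, and capitals mark matches on either strand to CCAAT, the Y box core (ATTGG on the other strand), or to an X box core of 12 letters, 9 of them fixed, whose match is the long run of capitals in H2-Eb1. No matches overlap. H2-Aa is read on the minus strand at chr17:34287774-34288073 and H2-Eb1 on the plus strand at chr17:34305617-34305916. H2-Ab1 and Cd74 are named only.
H2-Aa: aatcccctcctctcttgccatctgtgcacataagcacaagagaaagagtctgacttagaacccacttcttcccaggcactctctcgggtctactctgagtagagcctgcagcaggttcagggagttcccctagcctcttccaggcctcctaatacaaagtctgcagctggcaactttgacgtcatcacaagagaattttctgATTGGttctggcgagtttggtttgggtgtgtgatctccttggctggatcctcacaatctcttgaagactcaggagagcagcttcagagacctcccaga
H2-Eb1: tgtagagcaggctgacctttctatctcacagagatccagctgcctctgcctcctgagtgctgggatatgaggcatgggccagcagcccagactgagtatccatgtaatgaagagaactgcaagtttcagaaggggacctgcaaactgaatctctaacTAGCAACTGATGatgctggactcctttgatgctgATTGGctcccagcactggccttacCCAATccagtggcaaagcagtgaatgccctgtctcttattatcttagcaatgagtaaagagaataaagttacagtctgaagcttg
Both windows hold CCAAT on the other strand, and H2-Eb1 also on its own; 37.4% of the 32851 promoters of this length in the table hold it on either strand. The X box core was matched in the H2-Eb1 window only; 51 of the 32851 promoters (0.155%) hold it, and 24 (0.0731%) hold both motifs. A match describes the letters and not a bound factor.

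The class II share chose the cells and is given as a description. Its median was 4.13% of UMIs in cKO class II-high cells and 2.61% in fl/fl class II-high cells, against 0.0109% in 2096 cKO microglia and 0.0131% in 2597 fl/fl microglia (cells below both limits with UMIs of at least 3 of 8 microglial markers). The cells just inside the limit stood at 0.914%, 1.27% and 1.56% in cKO and at 0.512%, 0.580% and 0.676% in fl/fl; those just outside stood at 0.440%, 0.321% and 0.211% in cKO and at 0.494%, 0.465% and 0.450% in fl/fl. The limit fell in a gap in the cKO library, while in the fl/fl library cells lay close to it on both sides. The S100 limit left out 0 cKO cells and 3 fl/fl cells.

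**Figure D1:**
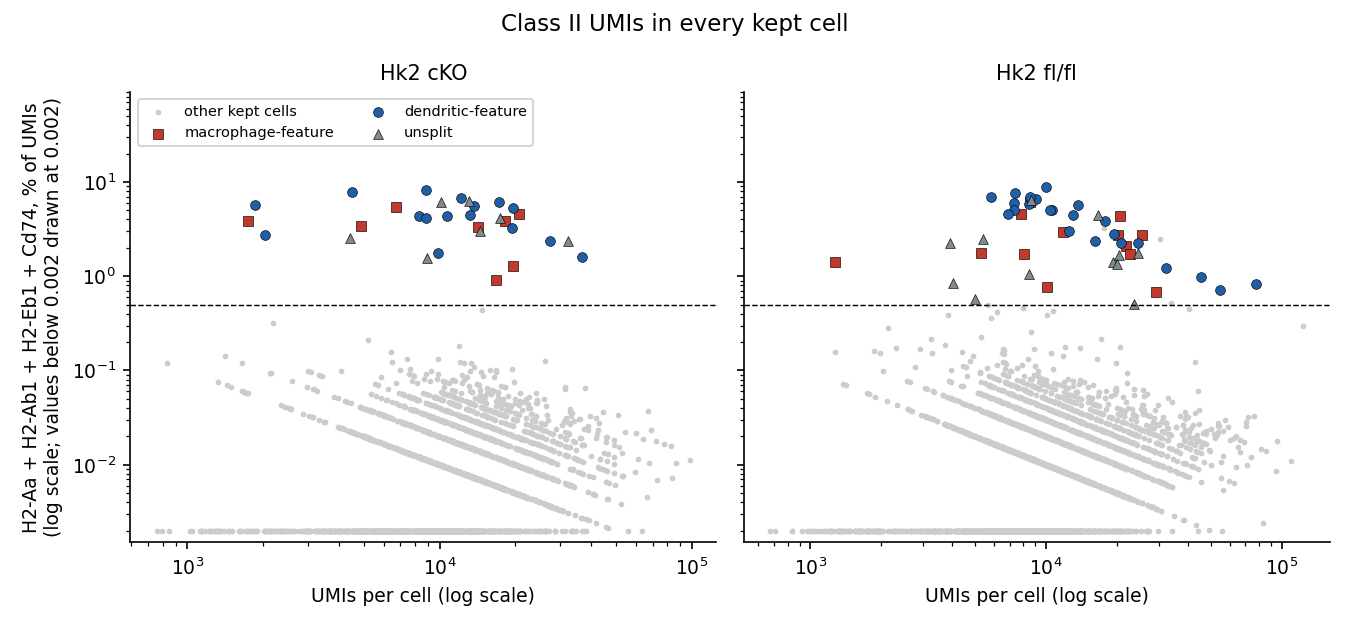
Share of UMIs from the 4 class II genes (vertical, log scale) against UMIs per cell (horizontal, log scale) for each kept cell of the Hk2 cKO (left) and Hk2 fl/fl (right) library; small grey points are other kept cells, coloured shapes are class II-high cells by the macrophage-feature and dendritic-feature split defined in the text, and the dashed line is the 0.5% limit. The 31 cKO and 48 fl/fl class II-high cells sit above the line at up to 8.26% and 8.75%, and the 3 small grey fl/fl points above it were left out by the S100 limit.

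Class II-high cells made up 1.35% (0.917 to 1.91) of kept cKO cells and 1.70% (1.25 to 2.25) of kept fl/fl cells, and the intervals overlapped. Their median depth was 13043 UMIs (1744 to 36562) in cKO and 12163 UMIs (1267 to 77714) in fl/fl, close to the 12071 and 10232 UMIs of microglia of the same libraries. Summed, they held 417293 cKO and 792434 fl/fl UMIs. The whole libraries held 32896996 and 37476201 UMIs. The libraries shared 2 barcodes, of which 0 were class II-high.

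Many of these cells also held microglial transcripts. At least 3 UMIs of P2ry12, Tmem119, Siglech and Fcrls were present in 11 of 31 cKO cells (35.5%, 19.2 to 54.6) and in 30 of 48 fl/fl cells (62.5%, 47.4 to 76.0); the intervals overlap, and more fl/fl cells were deep, with 4 of 31 cKO and 16 of 48 fl/fl cells over 20000 UMIs. Those cells were deeper, with medians of 18198 UMIs in cKO and 19775 UMIs in fl/fl, against 9982.5 and 8435 UMIs for the cells with fewer. Together the 4 markers reached 870 CPM (UMIs of a gene scaled to an equal total in each sum of cells) in cKO class II-high cells and 1329 CPM in fl/fl class II-high cells, against 2693 and 2651 CPM in microglia. They stood at 14.0 and 34.4 CPM in 29 cKO and 56 fl/fl cells with at least 3 UMIs of the monocyte genes Ly6c2, Plac8 and Ccr2. Those monocyte-gene cells were also chosen to lie below the class II limit and to hold UMIs of fewer than 3 of the 8 microglial markers. The 4 markers are among these 8, so that choice favours their low level there. The 3 deepest fl/fl cells, at 77714, 54492 and 45516 UMIs, held 24, 11 and 12 UMIs of Cd209a and at the same time 2368, 2514 and 2175 CPM of the microglial markers. No cKO cell passed 40000 UMIs. Doublets were not removed: the caller Scrublet marked 1 cKO and 2 fl/fl cells of the kept cells, so it did not work here, and 0 class II-high cells were among them. Whether cells with both kinds of markers are doublets was not tested, and main results below are also given for the 20 cKO and 18 fl/fl cells with fewer than 3 microglial marker UMIs, called low-microglial here.

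**Figure D2:**
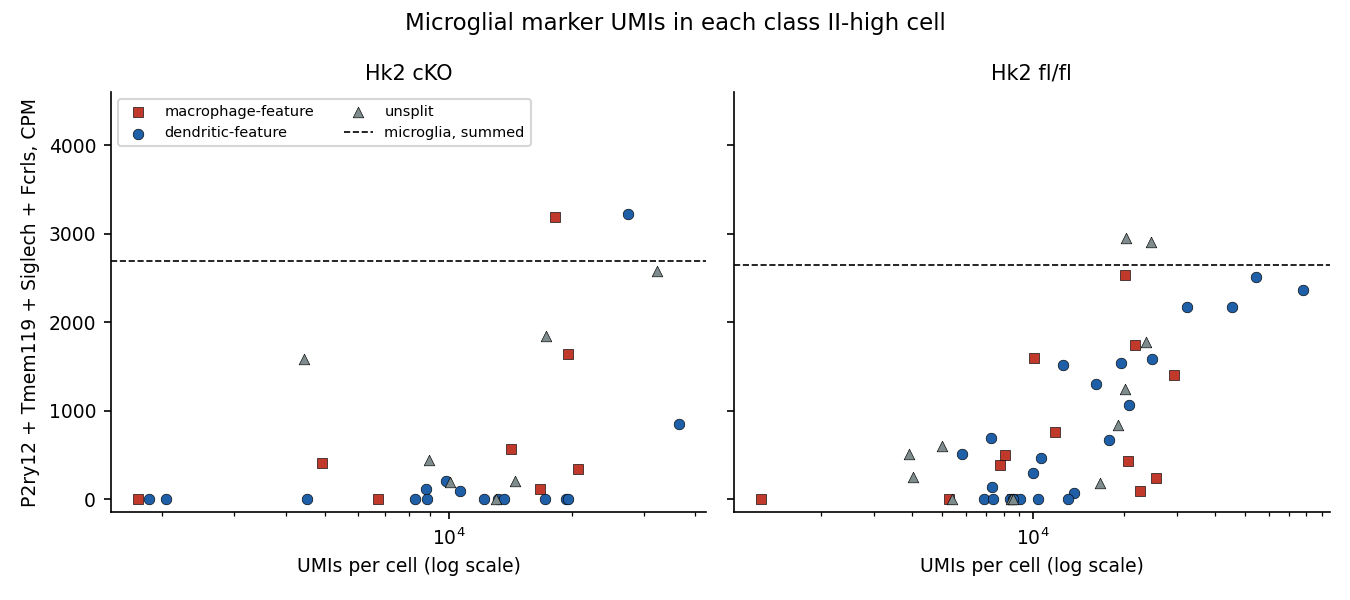
Summed CPM of P2ry12, Tmem119, Siglech and Fcrls (vertical) against UMIs per cell (horizontal, log scale) in each class II-high cell of the Hk2 cKO (left) and Hk2 fl/fl (right) library; shapes mark the macrophage-feature, dendritic-feature and unsplit cells, and the dashed line is the level of microglia. Of the cKO cells 14 of 31 lie at 0, and of the fl/fl cells 13 of 48; the 3 deepest fl/fl cells are dendritic-feature cells between 2175 and 2514 CPM.

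The label of the cells, macrophages and dendritic cells, was checked against the markers listed for them. Mgl2, a galactose-binding lectin of type 2 conventional dendritic cells and some macrophages (chromosome 11, 70130329 to 70137550, GENCODE M21 on GRCm38), was seen in 14 of 31 cKO and 27 of 48 fl/fl class II-high cells, against 0.0477% of cKO and 0.809% of fl/fl microglia. Cd209a, the lectin DC-SIGN of monocyte-derived and type 2 dendritic cells, was seen in 13 of 31 and 22 of 48 cells, against 0.0954% and 0.347% of microglia. Mrc1, the mannose receptor of border macrophages, was seen in 6 of 31 cKO and 21 of 48 fl/fl cells, against 1.34% and 1.73% of microglia. These microglial shares come from cells of about the same median depth, and whether the UMIs are stray was not tested. In microglia 1 cell held 63.6% of the fl/fl Cd209a UMIs, and 1 cell 33.3% of the cKO Mrc1 UMIs.

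Several markers of the mature lineages, named after their values were seen, were sparse, and others were not. The dendritic growth factor receptor gene Flt3 was seen in 3 of 31 cKO and 9 of 48 fl/fl cells. The dendritic transcription factor gene Zbtb46 was seen in 4 and 5 cells. Both shares were above those of microglia, where Flt3 was seen in 9 of 2096 cKO and 9 of 2597 fl/fl cells and Zbtb46 in 29 and 18. Ciita, from the same list of dendritic genes, was seen in 22 of 31 and 27 of 48 class II-high cells. Itgax, also of that list, was seen in more class II-high cells of both libraries than Flt3 or Zbtb46. Xcr1, the chemokine receptor of type 1 dendritic cells, gave 0 UMIs in all 79 cells, and Ccr7, the receptor of migrating dendritic cells, was seen in 1 and 5 cells. The haemoglobin scavenger receptor gene Cd163 of border macrophages was seen in 2 and 5 cells and the perivascular macrophage gene Lyve1 in 0 and 2 cells. Of lymphocyte genes, Cd3e and Ms4a1 gave 0 UMIs in class II-high cells of both libraries, which allows up to 3 UMIs in each sum (7.19 CPM in cKO and 3.79 CPM in fl/fl), and Cd79a was seen in 0 and 1 cells. Ccr2, the chemokine receptor with which monocytes enter tissue, was in contrast seen in 27 of 31 cKO cells (87.1%) and 43 of 48 fl/fl cells (89.6%), against 2.81% and 3.66% of microglia. The sort markers were present: Itgam, which encodes CD11b, in 26 and 42 cells, and Ptprc, which encodes CD45, in 30 and 44 cells. The cells are therefore called class II-high below, by their rule.

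Against microglia of the same library, class II-high cells differed most in a set of lectin, monocyte and calcium-binding protein genes. Ratios are on the log2 scale with 10 CPM added to both sides, so those of low genes are understated. Genes with at least 20 UMIs over the compared sums counted as measured. Of 15606 measured genes, 209 (1.34%) were at least 2-fold higher and 34 (0.218%) at least 2-fold lower in both libraries. Beside the class II genes, which chose the cells, the highest was Mgl2, at 333 CPM in class II-high cells against 0.0331 CPM in microglia of the cKO library and 422 against 0.720 CPM of the fl/fl library (log2 ratios 5.10 and 5.33). Ccr2 measured 424 against 4.21 CPM in cKO and 379 against 8.29 CPM in fl/fl. Napsa, an aspartic protease gene, measured 383 against 0.762 CPM in cKO and 278 against 4.72 CPM in fl/fl. The calcium-binding protein gene S100a6 measured 1723 against 40.8 CPM in cKO and 1162 against 55.8 CPM in fl/fl. Crip1, Ahnak, Lgals3 (galectin 3), S100a11, Plbd1, Wfdc17 and the lectin gene Clec4b1 completed the 12 highest, with the lower of the log2 ratios between 3.65 and 4.11.

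The lectin genes stood out by number. Of 15 measured C-type lectin genes, 11 were at least 2-fold higher in class II-high cells than in microglia in both libraries, read against 1.34% of all measured genes. Clec12a, an inhibitory lectin of myeloid cells, measured 326 against 16.4 CPM in cKO and 158 against 17.0 CPM in fl/fl. Clec7a, the beta-glucan receptor dectin 1, was an exception at 108 against 162 CPM in cKO and 178 against 168 CPM in fl/fl. Of 12 measured genes of type 2 dendritic cells, 9 were at least 2-fold higher in both libraries, among them Tnip3 and the transcription factor gene Irf4. The shared dendritic list had 5 of 10, the monocyte list 5 of 12 and the border macrophage list 8 of 19. The border macrophage list summed to 1270 CPM in cKO and 1248 CPM in fl/fl class II-high cells, against 531 and 540 CPM in microglia. For the monocyte list the sums were 3046 CPM in cKO and 2239 CPM in fl/fl class II-high cells, and 433 and 354 CPM in the microglia of those libraries.

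The class II loading and regulation genes that the rule did not use were mixed: of 12 measured, 6 were above microglia and 5 below in both libraries. Ciita, the class II transactivator, measured 113 CPM in class II-high cells (22 of 31 cells) against 0.0663 CPM in microglia of the cKO library, and 71.9 CPM (27 of 48 cells) against 0.173 CPM of the fl/fl library. The peptide loading gene H2-DMb1 measured 860 against 85.4 CPM in cKO and 502 against 72.9 CPM in fl/fl. Of these 12 genes, 3 were at least 2-fold higher in both libraries, beside 1.34% of all measured genes, and 1 (0.218% of all), the endosomal protease gene Lgmn, was at least 2-fold lower at 1162 against 3307 CPM in cKO and 1595 against 3288 CPM in fl/fl. The costimulation genes were mixed too: of 8 measured, 3 were above microglia and 4 below in both libraries. Cd40 and Tnfsf9 were at least 2-fold higher, beside 1.34% of all measured genes, whereas Cd86 measured 149 against 219 CPM in cKO and 133 against 225 CPM in fl/fl.

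Microglial genes had lower CPM in class II-high cells than in microglia of the same library for 16 of 16 list genes, but 8 of these are the markers that chose the microglia, so their direction is favoured by that choice. The 4 that were at least 2-fold lower in both libraries were all among those 8. Of the other 8 genes all were lower and 0 at least 2-fold, beside 0.218% of all measured genes. Of all 15606 measured genes, 9940 in cKO and 9253 in fl/fl had lower CPM in class II-high cells than in microglia. Among the lowest of all genes were Olfml3, Fcrls, Syngr1, Htra3 and Pon3, and Il12b, the p40 subunit of interleukin 12, gave 0 UMIs in class II-high cells against 32.3 CPM in cKO and 16.8 CPM in fl/fl microglia. In low-microglial cells, 332 of 15544 measured genes (2.14%) were at least 2-fold higher and 714 (4.59%) at least 2-fold lower than in microglia in both libraries, and 7 of the 8 microglial genes outside the choice of microglia were among those lower. Low-microglial cells were themselves chosen for few microglial UMIs. The lectin count was 11 of 14 there.

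Within the class II-high cells, Mrc1 plus Pf4 (platelet factor 4) and Cd209a plus Clec10a served to split them: a cell with more UMIs of the first pair was called macrophage-feature, one with more of the second dendritic-feature, and a tie unsplit. In cKO, 8 cells were macrophage-feature (25.8%, 11.9 to 44.6), 16 dendritic-feature (51.6%, 33.1 to 69.8) and 7 unsplit. In fl/fl, 13 cells were macrophage-feature (27.1%, 15.3 to 41.8), 23 dendritic-feature (47.9%, 33.3 to 62.8) and 12 unsplit. The libraries gave overlapping intervals for both kinds. UMIs of both pairs occurred together in 5 of 31 cKO and 18 of 48 fl/fl cells, and 6 and 10 cells had 0 UMIs of all 4 genes, so the features did not sort every cell. A call could rest on 1 UMI. At least 2 UMIs of Mrc1 and Pf4 with 0 of the other pair were present in 4 cKO and 5 fl/fl cells. The reverse held in 11 and 13 cells. Mrc1 was seen in 2 of 8 cKO and 11 of 13 fl/fl macrophage-feature cells. By the same rule 141 of 2096 cKO and 243 of 2597 fl/fl microglia would be macrophage-feature, and 5 and 20 dendritic-feature. At least 3 microglial marker UMIs were present in 4 of 8 macrophage-feature and 2 of 16 dendritic-feature cKO cells, and in 9 of 13 and 14 of 23 fl/fl cells. Mgl2, outside the split, was not confined to dendritic-feature cells. In fl/fl it measured 270 CPM in macrophage-feature, 470 CPM in dendritic-feature and 470 CPM in unsplit cells, where 1 cell gave 58.7%. In cKO these levels were 97.3, 584 and 39.8 CPM. The names therefore describe the 4 split genes and not a settled cell type.

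Macrophage-feature and dendritic-feature cells differed in genes outside the split. Of 5625 measured genes, 66 (1.17%) were at least 2-fold higher and 68 (1.21%) at least 2-fold lower in macrophage-feature cells in both libraries. Apoe, the lipid carrier made by macrophages, measured 12860 CPM in macrophage-feature against 23.4 CPM in dendritic-feature cells of the cKO library, and 5428 against 164 CPM of the fl/fl library. It was seen in 8 of 8 and 10 of 13 macrophage-feature cells, and the top cell gave 30.5% and 41.3% of those UMIs. Ms4a7, a membrane protein gene of border macrophages, measured 195 and 150.5 CPM in macrophage-feature cells and gave 0 UMIs in dendritic-feature cells of both libraries. The lysozyme gene Lyz2 measured 7354 against 1561 CPM in cKO and 8506 against 1095 CPM in fl/fl. F13a1 (coagulation factor XIII), the scavenger receptor gene Msr1 and Tgfbi were higher as well. Of 13 further border macrophage genes measured, 9 were at least 2-fold higher in macrophage-feature cells in both libraries. Several rest on a lone cell: Cbr2 drew 85.7% and 94.7% of its macrophage-feature UMIs from 1 cell in cKO and in fl/fl, Folr2 100% and 94.1%, and Ly6c2 85.7% and 82.6%.

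Dendritic-feature cells held more of the signalling adaptor gene Traf1, at 98.2 CPM against 9.73 CPM in macrophage-feature cells of cKO and 97.7 against 10.4 CPM of fl/fl. Taking macrophage-feature over dendritic-feature cells, its log2 ratios were -2.46 and -2.40. Kctd14 gave 0 UMIs in macrophage-feature cells, against 17 UMIs in cKO and 22 UMIs in fl/fl dendritic-feature cells. Lmo1, a LIM domain cofactor gene, measured 19.5 against 140.2 CPM in cKO and 15.6 against 97.7 CPM in fl/fl, the macrophage-feature cells first, and AA467197, Ctnnd2, Bach2 and Itpr1 were also among the 8 lowest. Zbtb46 gave 0 UMIs in macrophage-feature cells and 7 and 4 UMIs in dendritic-feature cells, whose sums are deeper. In CPM, 0 (up to 35.9) stood against 32.7 (13.2 to 67.4) in cKO, and 0 (up to 19.1) against 9.09 (2.48 to 23.3) in fl/fl. Both pairs of intervals overlap, so Zbtb46 does not set the 2 kinds apart. Macrophage-feature levels in this paragraph below 29.2 CPM in cKO or 15.6 CPM in fl/fl rest on fewer than 3 UMIs. The class II loading chains H2-DMb2 and H2-Oa were lower in macrophage-feature cells too, H2-Oa at 9.73 against 93.5 CPM in cKO and 25.9 against 77.3 CPM in fl/fl. Ccr2 ran the other way, at 661.5 CPM in macrophage-feature against 332 CPM in dendritic-feature cells of cKO and 799 against 189 CPM of fl/fl.

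**Figure D3:**
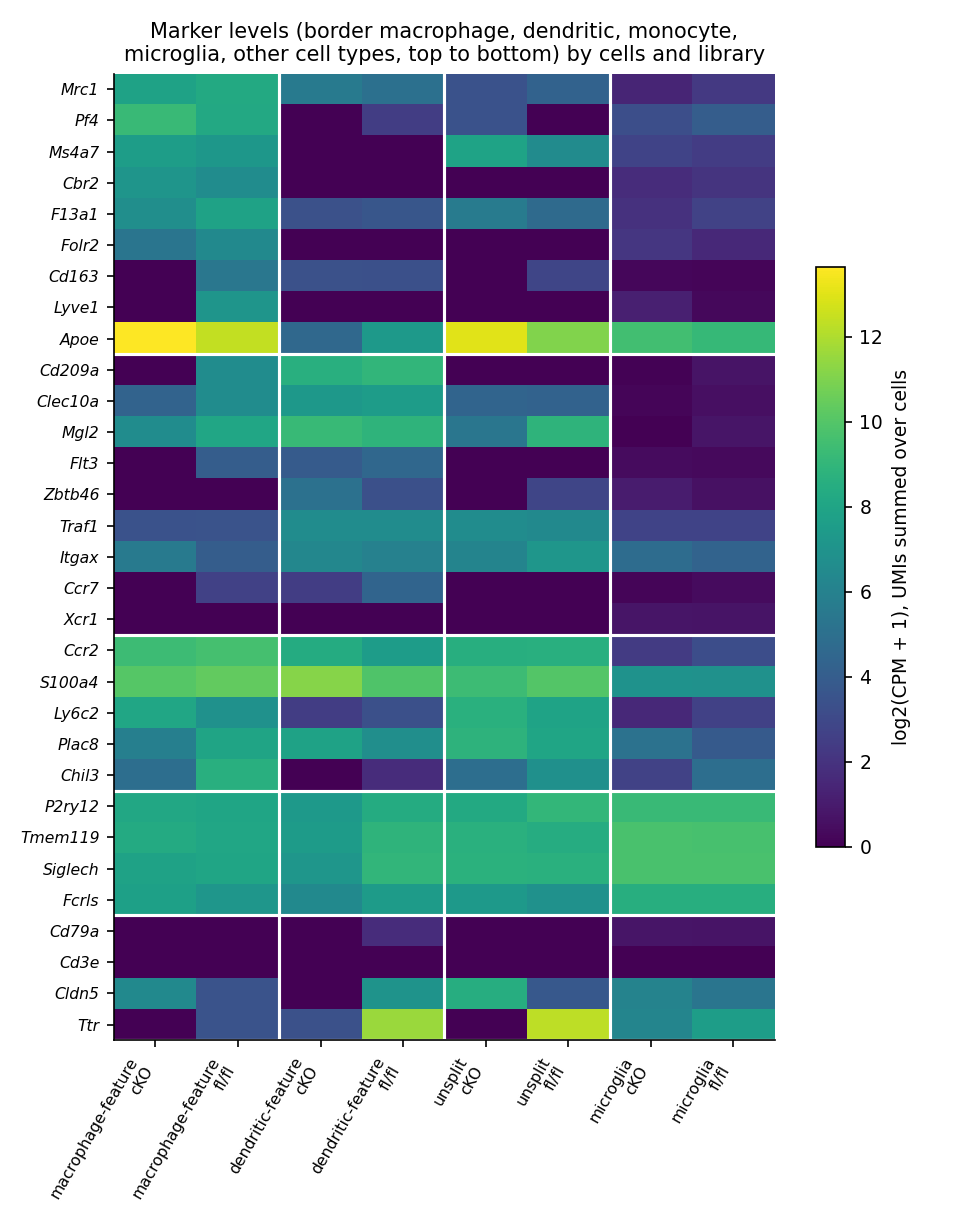
Level of marker genes, as log2(CPM + 1) of UMIs summed over cells (colour), in macrophage-feature, dendritic-feature and unsplit class II-high cells and in microglia, with Hk2 cKO left of Hk2 fl/fl in each pair of columns. Apoe and Ms4a7 are high in the macrophage-feature and unsplit columns, Traf1 in the dendritic-feature and unsplit columns, and Ccr2 in all class II-high columns, while Cd3e is at 0 throughout.

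The comparison of genotypes asks how these cells differ when Hk2, the gene of hexokinase 2, which adds a phosphate to incoming glucose, is targeted by Cx3cr1CreER. Hk2 itself (ENSMUSG00000000628, chromosome 6, 82725025 to 82774454) did not differ in class II-high cells by more than counting error. It measured 161 CPM (124 to 204) in cKO and 155 CPM (129 to 185) in fl/fl class II-high cells, from 67 and 123 UMIs, a log2 ratio of 0.046 (-0.40 to 0.49 with no CPM added). An Hk2 UMI was present in 23 of 31 cKO cells (74.2%) and 33 of 48 fl/fl cells (68.8%). In microglia it measured 43.0 CPM (40.7 to 45.5) in cKO and 165 CPM (160 to 169) in fl/fl, a log2 ratio of -1.94 (-2.02 to -1.85) with no CPM added, and a UMI was present in 33.9% and 75.2% of cells. The ratio intervals of class II-high cells and microglia do not overlap.

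Low-microglial class II-high cells gave 192 CPM of Hk2 (136 to 262) in cKO and 111 CPM (64.8 to 178) in fl/fl, and dendritic-feature cells 178 CPM (126 to 244) in cKO and 195 CPM (156 to 241) in fl/fl. The 29 cKO and 56 fl/fl monocyte-gene cells measured 65.4 CPM (35.8 to 110) in cKO and 163 CPM (124 to 211) in fl/fl. After thinning each cell to 3000 UMIs, which left out 3 cKO cells and 1 fl/fl cell, an Hk2 UMI was present in 21.4% (8.30 to 41.0) of cKO and 38.3% (24.5 to 53.6) of fl/fl class II-high cells, against 11.5% of cKO and 37.6% of fl/fl microglia. At that depth the interval of the cKO class II-high cells is too wide to set them apart from either library's microglia. The counts come from 3' ends and the floxed exons are not given, so a UMI of Hk2 does not show that the allele is intact. Cx3cr1, the gene of the fractalkine receptor whose locus drives the Cre, measured 371 CPM (315 to 435) in cKO and 959 CPM (892 to 1030) in fl/fl class II-high cells, and 108 CPM (67.8 to 164) and 327 CPM (243 to 431) in the low-microglial ones; in microglia it measured 667.5 and 1287 CPM.

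**Figure D4:**
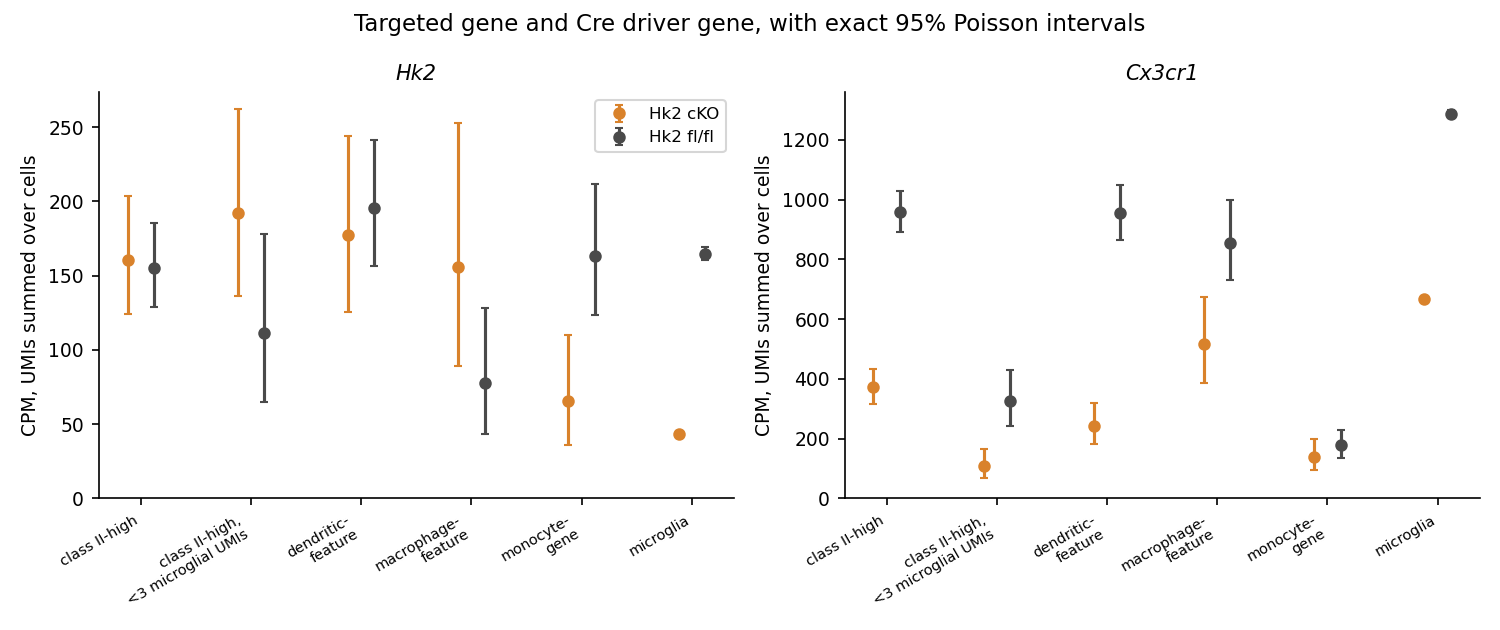
CPM of Hk2 (left) and Cx3cr1 (right) with exact 95% Poisson intervals in class II-high cells, their low-microglial, dendritic-feature and macrophage-feature subsets, monocyte-gene cells and microglia, Hk2 cKO left of Hk2 fl/fl. Hk2 stands at 161 CPM in cKO and 155 CPM in fl/fl class II-high cells and at 43.0 CPM in cKO and 165 CPM in fl/fl microglia; Cx3cr1 is lower in cKO in every set drawn, with overlapping intervals in monocyte-gene cells.

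Over all genes, 91 of 6375 measured (1.43%) were at least 2-fold higher and 201 (3.15%) at least 2-fold lower in cKO than in fl/fl class II-high cells, and the median log2 ratio was -0.09. The fl/fl sum holds more microglial marker UMIs, as given above, and 14 of 15 measured microglial genes had lower CPM in cKO, with a median of -0.54. In low-microglial cells 89 of 2374 measured genes (3.75%) were at least 2-fold higher and 66 (2.78%) at least 2-fold lower. In dendritic-feature cells 3.09% of 4369 were higher and 8.81% lower, and in microglia 0.0968% and 0.0323% of 15503. Ratios above 0 numbered 1198 in low-microglial cells, 1883 in dendritic-feature cells and 6694 in microglia.

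Interferon-response genes were higher in cKO class II-high cells. All 20 list genes measured had higher CPM in cKO than in fl/fl, beside 2672 of all 6375 measured genes, and 7 were at least 2-fold higher, beside 1.43% of all. Their median log2 ratio was 0.72, beside -0.09 over all genes. Isg15, a ubiquitin-like modifier, measured 225 CPM (182 to 276) in cKO and 53.0 CPM (38.2 to 71.6) in fl/fl, a log2 ratio of 1.90, and was seen in 20 of 31 and 19 of 48 cells. Rsad2, the antiviral enzyme viperin, measured 125 CPM (93.1 to 163) in cKO and 12.6 CPM (6.05 to 23.2) in fl/fl. Ifit3 measured 113 CPM in cKO and 27.8 CPM in fl/fl, and Ifit1 93.5 CPM in cKO and 21.5 CPM in fl/fl. The membrane protein gene Ifitm3 measured 2305 CPM in cKO and 1415 CPM in fl/fl. Gbp2 drew 74.1% of its cKO UMIs from 1 cell. That unsplit cell, described at the end, also gave the most Isg15 and Rsad2 UMIs; without it the list median was 0.56, Isg15 stood at 1.58 and Rsad2 at 2.02.

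The interferon genes did not move alike in all subsets. In low-microglial cells 11 of 12 measured list genes were higher in cKO, beside 1198 of all 2374, with a median of 1.09. There 1 cell gave 48.9% of the cKO UMIs of Isg15, 70.4% of those of Rsad2 and 100% of those of Ifit3. In dendritic-feature cells 8 of 12 were higher, beside 1883 of all 4369, with a median of 0.37, and Ifit3 stood at 0 UMIs in cKO and 15 UMIs in fl/fl. Isg15 there measured 51.4 CPM (25.7 to 92.0) in cKO and 36.4 CPM (20.8 to 59.0) in fl/fl, within counting error. The 7 cKO and 12 fl/fl unsplit cells gave 626 CPM (481 to 801) in cKO and 43.8 CPM (17.6 to 90.3) in fl/fl. In microglia all 20 were higher in cKO, with a median of 0.99, so the same list was higher in the bulk of the library.

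Transcripts of class I presentation genes were mostly higher in cKO class II-high cells, by less than 2-fold, and those of class II loading genes were mixed. Of 13 measured class I presentation genes, 12 had higher CPM in cKO, beside 2672 of all 6375, and 0 were at least 2-fold higher. Their median log2 ratio was 0.46. In low-microglial cells 10 of 13 were higher, beside 1198 of all 2374, with a median of 0.41. There 3 were at least 2-fold higher, beside 3.75% of all. In microglia all 14 measured were higher in cKO, with a median of 0.49, so this list too was higher in the bulk of the library. The class I heavy chain gene H2-D1 measured 2638 CPM in cKO and 1641 CPM in fl/fl, and H2-K1 1651 CPM in cKO and 1196 CPM in fl/fl. Of 10 measured class II loading and regulation genes, 7 were above 0 and 3 below, with a median of 0.14 (5 of 9 above 0 and a median of 0.21 in low-microglial cells). Ciita measured 113 CPM (82.8 to 150) in cKO and 71.9 CPM (54.5 to 93.2) in fl/fl, with overlapping intervals. The 4 class II genes of the rule had log2 ratios of 0.52 to 0.65, and a median of 0.10 in low-microglial cells; they chose the cells and are given as a description. Of the costimulation genes, Cd86 measured 149 CPM in cKO and 132.5 CPM in fl/fl, and Cd80 28.8 CPM in cKO and 15.1 CPM in fl/fl, both with overlapping intervals.

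Genes of DNA replication were higher in cKO class II-high cells. All 12 S phase list genes had higher CPM in cKO, 5 of them at least 2-fold, beside 2672 of 6375 and 1.43% of all measured genes. The median log2 ratio of the list was 0.96; in microglia the median of the same list was -0.037. The replicative helicase gene Mcm5 measured 98.3 CPM (70.5 to 133) in cKO and 26.5 CPM (16.4 to 40.5) in fl/fl, and the sliding clamp gene Pcna 273 CPM (225 to 328) in cKO and 149 CPM (123 to 178) in fl/fl. Uhrf1, which helps to copy DNA methylation, Lig1, a DNA ligase, and Gins2, a helicase subunit, were among the 10 highest ratios, at 1.58, 1.58 and 1.57. In dendritic-feature cells all 10 measured S phase genes were higher, beside 1883 of all 4369, with a median of 1.35. All 14 measured microglial genes were lower there, beside 2486 of all 4369, with a median of -1.29. In low-microglial cells 4 of 6 S phase genes were higher, beside 1198 of all 2374, with a median of 0.40. In low-microglial dendritic-feature cells 3 of 5 were higher, beside 882 of all 1582, with a median of 0.082. The 12 G2/M genes were split, 6 above and 6 below 0, with a median of -0.034. After thinning to 3000 UMIs, 32.1% (15.9 to 52.4) of 28 cKO and 12.8% (4.83 to 25.7) of 47 fl/fl cells had UMIs of at least 3 of the 12 S phase genes, and the intervals overlap; unthinned the shares were 51.6% and 47.9%.

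Lectin genes and genes of type 2 dendritic cells were mixed over all class II-high cells. Of 14 measured C-type lectin genes 6 had higher and 8 lower CPM in cKO, with a median of -0.23. Of 9 measured genes of type 2 dendritic cells 3 had higher and 6 lower CPM, with a median of -0.33. Both counts lie near the share over all 6375 measured genes, of which 2672 had higher and 3703 lower CPM. The shared dendritic list had 5 of 7 above 0, with a median of 0.038. In low-microglial cells 7 of 8 genes of type 2 dendritic cells had lower CPM in cKO, beside 1176 of all 2374, with a median of -0.44. There Mgl2 measured 433 CPM (347 to 533) in cKO and 961 CPM (812 to 1130) in fl/fl, and Clec10a 128 CPM (83.6 to 187) in cKO and 301 CPM (220 to 401) in fl/fl. Dendritic-feature cells went the other way for Mgl2, at 584 CPM (486 to 696) in cKO and 470 CPM (409 to 539) in fl/fl. Cd209a (383 and 500 CPM) and Clec10a (154 and 186 CPM) were lower in cKO there, and all 3 pairs of intervals overlap. Over 19 alternatives the list median ran from -1.38 to 0.307. In all class II-high cells Mgl2 measured 333 CPM (280 to 393) in cKO and 422 CPM (377 to 469) in fl/fl, Cd209a 197 CPM (156 to 244) in cKO and 302 CPM (265 to 342) in fl/fl, and Mrc1 83.9 CPM (58.4 to 117) in cKO and 97.2 CPM (76.7 to 121) in fl/fl. Clec12a was higher in cKO, at 326 CPM (273 to 386) against 158 CPM (131 to 188) in fl/fl. Glycolysis genes, which follow hexokinase in the same pathway, had a median of 0.065 over 16 measured genes. Of these 11 were above and 5 below 0, beside 2672 above and 3703 below of all 6375. In low-microglial cells the median was 0.090 over 11 genes. Gapdh measured 1481 CPM in cKO and 1574 CPM in fl/fl.

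**Figure D5:**
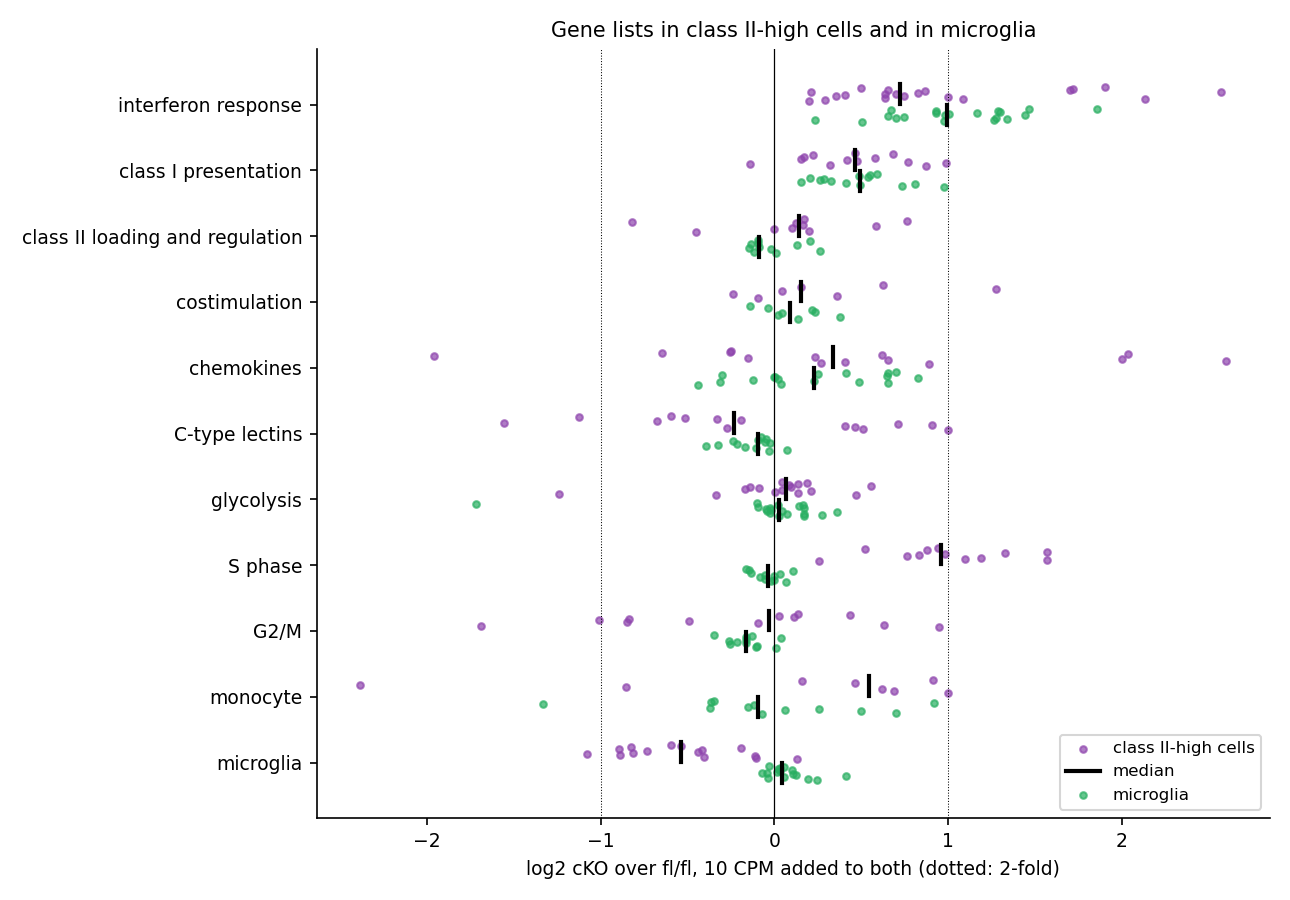
log2 ratio of Hk2 cKO over Hk2 fl/fl CPM (horizontal, 10 CPM added to both) for each measured gene of the lists named on the axis, in class II-high cells and in microglia; black bars are medians and dotted lines mark 2-fold. In class II-high cells the interferon list has a median of 0.72, the S phase list 0.96 and the microglia list -0.54; in microglia these medians are 0.99, -0.037 and 0.041.

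The lowest ratios included a quiescence factor, a cytokine and a chemokine. Klf2, a transcription factor of myeloid quiescence, measured 122 CPM (91.0 to 161) in cKO and 432 CPM (387 to 480) in fl/fl, and was seen in 14 of 31 and 32 of 48 cells. Il1a, the cytokine interleukin 1 alpha, measured 91.1 CPM (64.4 to 125) in cKO and 346 CPM (306 to 389) in fl/fl. Slc7a11, the cystine transporter, measured 14.4 CPM in cKO and 71.9 CPM in fl/fl, and the monocyte chemokine gene Ccl7 26.4 CPM in cKO and 131 CPM in fl/fl. Rassf3, Rab11fip1, Evi5, Arl8a, Proser1 and Ank2 completed the 10 lowest, with log2 ratios of -2.30 to -1.62. Without the 3 fl/fl cells over 40000 UMIs, Klf2 stood at -1.34 and Il1a at -1.38. In low-microglial cells the log2 ratio of Klf2 was -0.76, of Il1a -0.55 and of Slc7a11 -0.66. Among the highest, Gpr137b and the lectin gene Clec2d stood at 1.84 and 1.53 beside the interferon and replication genes.

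Some of the widest differences came from 1 or 2 cells. Acp5, the osteoclast acid phosphatase, measured 311.5 CPM in cKO and 5.05 CPM in fl/fl, with 87.7% of the cKO UMIs in 1 macrophage-feature cell. The chemokine gene Cxcl9 had 257 of its 261 cKO UMIs in 1 unsplit cell, which also held 85 UMIs of Ccl5, 43 of Gbp2 and 48 of Ly6a and 0 of the 4 microglial markers; in fl/fl 67 of 75 Cxcl9 UMIs came from 1 cell. Ttr, the transthyretin gene of choroid plexus epithelium, gave 2 UMIs in cKO and 2154 UMIs in fl/fl class II-high cells, of which 1340 lay in a dendritic-feature cell with 21 Cd209a UMIs and 808 in an unsplit cell of 4031 UMIs. The choroid plexus list summed to 9.59 CPM in cKO and 2954 CPM in fl/fl class II-high cells, against 80.4 and 198 CPM in microglia, and its part in the other results was not tested.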

How the data were processed

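The authors deposited raw UMI counts per gene and barcode for each library, with no normalization. These counts come from 10x 3' v3 libraries per the labels' protocols and from bcl2fastq and Cell Ranger 3.1.0 on GRCm38, per the submitters' processing notes. Which gene annotation was counted is not stated; all 55450 identifiers match GENCODE M21, used for coordinates. The gene with most counts stood for a repeated symbol. Groups follow the genotype labels. UMIs were summed over the cells of a set and divided by their total to CPM; log2 ratios set cKO over fl/fl, class II-high cells over microglia, or macrophage-feature over dendritic-feature cells. Ratio intervals are exact conditional binomial intervals with no CPM added. Thinning was hypergeometric with a fixed seed. The sum and ratio steps were tested on simulated counts.

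The cells, the 27 gene lists, the splits and the rule for named genes were chosen with earlier results of these data known. Named genes are Hk2, Cx3cr1 and the markers given for the cells; the 10 highest and 10 lowest genotype ratios among genes with Poisson intervals that do not overlap and a UMI in at least 25% of cells of the higher library; the 12 highest and 8 lowest ratios within libraries; and members of the lists with wide ratios or high levels. Left out of these were genes of mitochondria, ribosomal proteins, haemoglobin or sex, and Gm or Rik models. Ttr, Cxcl9, Ccl5, Ly6a, the lineage markers at or near 0 and some list members were named after their values were seen. Alternatives were other class II, gene, mitochondrial and S100 limits, no cells with microglial markers or high doublet scores, per-cell means, other scalings (TMM in edgeR 4.0.16, R 4.3.3), added CPM and UMI filters, subsets and splits. Python 3.11.15, numpy 2.4.6, scipy 1.17.1, pandas 2.3.3, scanpy 1.11.5 and matplotlib 3.10.9 were used. Some genes are not reported here.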

Additional observations from a re-analysis of the deposited data

Results flagged for a closer look

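Of the genes named for the genotype comparison, 7 had log2 ratios of cKO over fl/fl of opposite sign in class II-high cells and in microglia. These ratios differed by at least 1 (10 CPM added). The differences were not tested, because each comparison rests on 1 library per genotype. Hk2 stood at 0.046 in class II-high cells, within counting error of no change, and at -1.72 in microglia. The replication genes Uhrf1, Lig1, Mcm5 and Gins2 stood at 1.58, 1.58, 1.57 and 1.57 in class II-high cells and at -0.047, -0.037, -0.14 and -0.022 in microglia. Those microglial ratios are close to no change, so their sign says little. Ccl7 stood at -1.96 in class II-high cells and 0.65 in microglia, and Il1a at -1.82 and 0.33. Apart from Hk2 these genes were named for a wide ratio in class II-high cells, which favours smaller ones in microglia.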

How the results depend on the processing

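No paired analysis was possible because there was 1 library per genotype. Over 50 results and their alternatives, 726 of 846 recomputed values stayed within the limits set for them, 116 moved and 4 reversed. With class II genes at 1% or more of UMIs, 131 genes were lower in cKO and Hk2 stood at 0.49. Without cells of 3 or more microglial marker UMIs, class II-high cells were 0.869% of cKO and 0.637% of fl/fl cells, 70.0% of cKO ones were dendritic-feature, 66 genes were lower in cKO and Hk2 stood at 0.74; over microglia 332 genes were higher and 714 lower in both libraries. With means of per-cell CPM, 166 genes were higher in cKO, and 120 higher and 133 lower in macrophage-feature over dendritic-feature cells. With 1 CPM added, 200 genes were higher and 477 lower in cKO, 510 and 547 over microglia, and 114 and 161 in macrophage-feature over dendritic-feature cells. With at least 50 UMIs, 44 genes were higher and 76 lower in cKO, and 31 higher and 22 lower in macrophage-feature over dendritic-feature cells; with no filter, 170 were higher and 320 lower in cKO. In macrophage-feature cells alone Hk2 stood at 0.92. In dendritic-feature cells alone 385 genes were lower in cKO and Ifit3 reversed to -2.14. With a split by at least 2 UMIs of one pair and 0 of the other, 10.4% of fl/fl cells were macrophage-feature and 27.1% dendritic-feature, and 244 genes were lower in macrophage-feature cells. Chosen after seeing the data, dendritic-feature cells with fewer than 3 microglial marker UMIs gave 34 genes lower in cKO, and Gpr137b, Ifit3 and Ccl7 reversed to -0.53, -2.52 and 1.87; leaving out the cKO cell with most Cxcl9 or the fl/fl cells over 40000 UMIs was also chosen then. Fewer cells or genes enter most of these; beyond that the cause was not tested. Depth limits the subsets: 3 UMIs, the limit used for a gene at 0, are 29.2 CPM in the 8 cKO macrophage-feature cells.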
